A study of Mus musculus with 12 samples.

Results

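The 10 genes described here encode the machinery of MHC class I antigen presentation: the heavy chains H2-K1 and H2-D1, the light chain B2m, the peptide transporter subunits Tap1 and Tap2, the loading bridge Tapbp, the immunoproteasome subunits Psmb8, Psmb9 and Psmb10, and the transactivator Nlrc5. They were chosen by name for these roles and matched by the gene symbols of the deposited tables. All 10 were found among the 21960 genes listed.

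Nucleated cells cut their own proteins into peptides in the proteasome, and the Tap1-Tap2 transporter pumps these peptides into the endoplasmic reticulum, where Tapbp holds empty heavy chains, already paired with B2m, beside the transporter until a peptide binds. The loaded complex moves to the cell surface and is read there by CD8 T cells, the cells that PD-1 blockade is meant to release. Interferon gamma raises most of these genes, swaps the catalytic subunits of the standard proteasome for those of the immunoproteasome, and induces Nlrc5, and carcinomas, mammary tumors included, are known to escape CD8 T cells by lowering class I display.

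The samples were whole mammary tumors of female C57BL/6 mice carrying MMTV-PyMT, a transgene in which the mouse mammary tumor virus promoter drives the polyoma middle T oncogene in mammary epithelium, so that several tumors can arise in the same animal. RNA of 12 snap-frozen tumors, 3 in each of 4 groups, was sequenced in bulk from a stranded total RNA kit, and the labels give up to 5 weeks of follow-up. The groups ask whether an antibody against the T cell checkpoint receptor PD-1 acts differently with and without the chemotherapy drug doxorubicin. The IgG1 group received the isotype control antibody and the anti-PD-1 group the blocking antibody, in both cases from a tumor diameter of 0.6 cm, at 20 mg/kg for the first dose and 10 mg/kg after it. The DOX/IgG1 and DOX/anti-PD-1 groups started at 1 cm and received doxorubicin weekly at 5 mg/kg, each time followed a day later by the same antibodies at 10 mg/kg. Every comparison across doxorubicin therefore also differs in the tumor size at the start, the first antibody dose and the schedule, and these cannot be told apart from the drug. The labels do not tell more about which tumors came from separate mice, so the p-values below measure the spread between these tumors.

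Levels are in TPM, a transcript's share of the transcripts counted in a tumor after correction for its length, which allows levels of different genes to be compared. The listed genes summed to 609418 to 725506 TPM in a tumor, so the values are not shares of the listed genes alone, and the same TPM is a different part of that sum in each tumor. Because such values keep no record of read depth, that depth is unknown, no counting interval can be given, and a gene listed at 0 may be a failed estimate. Epithelial genes were present in every tumor: Epcam, an adhesion molecule of epithelial cells, lay between 418 and 954 TPM, and the luminal keratin Krt18 between 376 and 749.6 TPM. Ptprc, carried by all leukocytes, lay between 51.9 and 170 TPM, so the tissue held immune cells as well. Class I genes are made by nearly all nucleated cells, so the source of their RNA in this tissue cannot be told, nor can fewer cells of a type be told apart from less RNA per cell.

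All 10 members were above 1 TPM in every tumor, and none was lost to the filter on low values. The light chain was the most abundant, with a mean of 1664 ± 662 TPM over the 12 tumors (SD, n = 12), rank 21 of all 21960 genes. H2-K1 followed at 1076 ± 306 TPM (rank 34) and H2-D1 at 918 ± 271 TPM (rank 44). A gap separated them from the loading bridge Tapbp at 224 ± 34.2 TPM (rank 444), since the lowest H2-D1 value, 523 TPM, was above the highest Tapbp value, 279 TPM. Below it came Nlrc5 at 149 ± 57.8 TPM, Tap1 at 91.3 ± 23.6 TPM, Tap2 at 57.8 ± 27.7 TPM and Psmb8 at 49.5 ± 15.5 TPM. Psmb9, at 20.5 ± 5.47 TPM, and Psmb10, at 16.6 ± 6.66 TPM (rank 7563), were the least abundant. Apart from the gap below H2-D1, each member's range over the tumors overlapped that of the next in the order.

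H2-K1 is 1 of the 2 classical heavy chains of C57BL/6 mice, the membrane proteins whose groove holds the peptide. It measured 1051, 886 and 813 TPM under IgG1 (tumors 1, 2 and 3, an order kept throughout), 1488, 653 and 562 TPM under anti-PD-1, 1459.5, 1118 and 1388 TPM under DOX/IgG1, and 1331, 1079 and 1079 TPM under DOX/anti-PD-1. All 3 DOX/IgG1 tumors were above all 3 IgG1 tumors, whereas under anti-PD-1 tumor 1 was the highest of all 12 and tumors 2 and 3 were the lowest, so that the anti-PD-1 group spanned every other group. H2-D1, the other classical heavy chain, measured 713, 743 and 761 TPM under IgG1, 1091, 523 and 577 TPM under anti-PD-1, 794, 1046 and 1343 TPM under DOX/IgG1, and 1131, 1002 and 1298 TPM under DOX/anti-PD-1. The IgG1 tumors lay close together at 739 ± 24.4 TPM (SD, n = 3), below every tumor that had received doxorubicin, and anti-PD-1 tumor 1 again stood with the doxorubicin tumors. The heavy chains share sequence with their relatives, which makes their levels less certain: 3.10% of the 75-base windows of H2-K1 exons recur in 15 other genes, first H2-Q10, and 5.40% of those of H2-D1 recur in 17, first H2-Q1.

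B2m encodes beta-2 microglobulin, the invariant light chain without which heavy chains do not reach the surface. Its values were 1951, 674 and 1379.6 TPM under IgG1, 1555, 1655 and 1926 TPM under anti-PD-1, 1242, 2515 and 2536 TPM under DOX/IgG1, and 1741, 2344 and 451 TPM under DOX/anti-PD-1. Every pair of groups overlapped, and the levels spanned 5.62-fold over the 12 tumors, with IgG1 tumor 2 and DOX/anti-PD-1 tumor 3 far below the rest. The ratio of B2m to H2-K1 accordingly ran from 0.418 in DOX/anti-PD-1 tumor 3 to 3.43 in anti-PD-1 tumor 3. No 75-base window of B2m recurred in another gene, although its locus overlaps Patl2 on the other strand, and the strand on which reads were counted is not stated.

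Promoters of class I genes are known to carry a shared set of elements, the X2 and Y boxes of the module on which Nlrc5 acts, an interferon element and a kappaB site. The windows of the heavy and light chains are shown, and a relation of their letters to the levels was not tested. RefSeq windows of build GRCm38.p6 cover 250 bases before and 50 bases from the start, 300 in all, and were listed for 8 of the 10 members; Tap2 and Nlrc5 had none. H2-K1 (the first of its 2 windows) is at chr17:34000298-34000597 on the minus strand, H2-D1 at chr17:35262844-35263143 on the plus strand and B2m at chr2:122147437-122147736 on the plus strand. They are printed 5′ to 3′ along the gene's strand, with capitals marking the letters that match a searched motif:
H2-K1: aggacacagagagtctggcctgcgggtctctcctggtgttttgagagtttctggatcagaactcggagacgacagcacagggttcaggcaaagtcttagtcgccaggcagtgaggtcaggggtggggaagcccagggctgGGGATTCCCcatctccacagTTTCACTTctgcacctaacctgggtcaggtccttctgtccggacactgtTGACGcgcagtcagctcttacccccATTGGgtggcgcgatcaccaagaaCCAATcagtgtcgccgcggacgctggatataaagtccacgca
H2-D1: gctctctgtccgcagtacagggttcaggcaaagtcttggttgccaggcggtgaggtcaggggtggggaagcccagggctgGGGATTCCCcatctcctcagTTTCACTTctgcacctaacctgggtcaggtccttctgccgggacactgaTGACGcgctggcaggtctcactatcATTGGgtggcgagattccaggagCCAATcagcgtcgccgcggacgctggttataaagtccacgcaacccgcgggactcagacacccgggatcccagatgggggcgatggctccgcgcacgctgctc
B2m: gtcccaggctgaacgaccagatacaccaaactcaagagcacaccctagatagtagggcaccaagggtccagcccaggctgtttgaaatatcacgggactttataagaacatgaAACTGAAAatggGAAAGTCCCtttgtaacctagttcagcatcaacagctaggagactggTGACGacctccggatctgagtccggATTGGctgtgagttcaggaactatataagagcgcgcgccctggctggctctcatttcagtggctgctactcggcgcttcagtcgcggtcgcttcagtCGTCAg
Motifs were searched on both strands as CCAAT (Y box), TGACG (core of the X2 box), AANNGAAA (core of the interferon element), GGGANTNNC (kappaB-like) and TTCNNNGAA (gamma-activated site). In H2-D1 the kappaB-like match began 170 bases before the start, the interferon match 150, the X2 match 101 and the Y matches 76 and 53 bases before it. H2-K1 held the same matches in the same order, from 110 bases before the start on, with the second Y match 8 bases after it. In both heavy chains the kappaB-like letters read as a match on either strand, and in none of the windows do matches of different motifs overlap. In B2m the order differed, with the interferon match 137 and the kappaB-like match 125 bases before the start, the X2 match at 78 and the Y match at 53, and a further X2 match 44 bases after it. Among all 32851 windows, 14% held the kappaB-like letters, 23.9% the interferon letters, 20.8% the X2 letters and 37.4% the Y letters, so a match is a description and not a shown binding site, and a missing match says only that these letters are absent from the window.

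**Figure D1:**
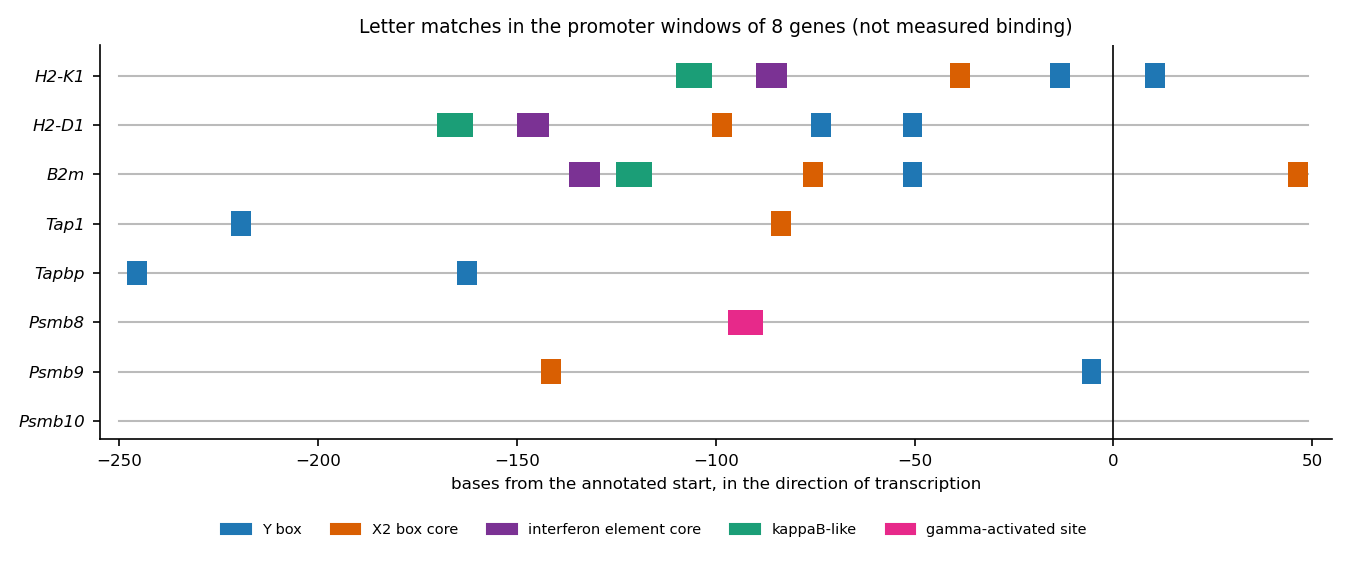
Position of each motif match (horizontal axis, bases from the gene start; 1 line per member promoter window, 300 bases, colours for the motifs) in the members with a RefSeq window. H2-K1, H2-D1 and B2m carry kappaB-like, interferon, X2 and Y letters, Tap1 and Psmb9 X2 and Y letters, Tapbp Y letters, Psmb8 a gamma-activated match, and Psmb10 none.

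Tap1 and Tap2 form the peptide transporter. Tap1 measured 91.3, 64.3 and 64.9 TPM under IgG1, 92.4, 68.89 and 68.85 TPM under anti-PD-1, 136, 104 and 125 TPM under DOX/IgG1, and 94.2, 107 and 78.7 TPM under DOX/anti-PD-1. The DOX/IgG1 tumors were above all 6 tumors without doxorubicin, and 5 of the 6 doxorubicin tumors were, the exception being DOX/anti-PD-1 tumor 3. Tap2 measured 53.8, 36.35 and 40.6 TPM under IgG1, 59.1, 28.7 and 32.1 TPM under anti-PD-1, 61.4, 78.5 and 126 TPM under DOX/IgG1, and 51.2, 85.3 and 40.9 TPM under DOX/anti-PD-1. Again all 3 DOX/IgG1 tumors exceeded every tumor without doxorubicin, and DOX/anti-PD-1 tumor 3 lay among the IgG1 values. Tap1 was the more abundant in 11 of the 12 tumors, the exception being DOX/IgG1 tumor 3, where Tap2 peaked at 126 TPM and the ratio of Tap1 to Tap2 was 0.992. Their genes are neighbours, with Psmb9, Tap1, Psmb8 and Tap2 lying within 34.3 kb on chromosome 17 (GENCODE positions of GRCm38), where 7 of the 10 members are found. Tap1 and Psmb9 start head to head, with 226 bases between their starts, so that their promoter windows share 275 of 300 bases and are shown once, as Tap1 at chr17:34187306-34187605 on the plus strand:
Tap1: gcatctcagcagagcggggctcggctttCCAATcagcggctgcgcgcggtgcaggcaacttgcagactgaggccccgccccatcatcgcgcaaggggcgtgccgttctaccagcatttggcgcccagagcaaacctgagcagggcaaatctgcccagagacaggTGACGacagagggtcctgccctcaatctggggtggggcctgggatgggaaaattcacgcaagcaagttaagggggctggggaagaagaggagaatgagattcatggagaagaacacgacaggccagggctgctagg
Its Y letters lie 222 and its X2 letters 86 bases before the Tap1 start; the same letters read from the Psmb9 start lie 8 and 144 bases before it. The annotated loci of Tap1 and Psmb9 overlap on opposite strands, so reads of the overlap cannot be assigned with certainty.

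Tapbp, or tapasin, tethers heavy chains to the transporter while peptides are tried. It measured 207, 212 and 211 TPM under IgG1, 239, 183 and 209 TPM under anti-PD-1, 279, 237 and 279 TPM under DOX/IgG1, and 199, 258 and 178 TPM under DOX/anti-PD-1. It was the steadiest member, 1.57-fold from lowest to highest tumor, and its IgG1 tumors lay within 209.8 ± 2.60 TPM (SD, n = 3), below all 3 DOX/IgG1 tumors. Tapbp shares 1.10% of its 75-base windows with a pair of genes, of which Zbtb22 overlaps its locus on the same strand.

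The immunoproteasome replaces the catalytic subunits Psmb5, Psmb6 and Psmb7 of the standard proteasome with Psmb8, Psmb9 and Psmb10, which changes the ends of the peptides it makes. Psmb8 measured 47.2, 24.6 and 44.0 TPM under IgG1, 43.1, 49.1 and 48.3 TPM under anti-PD-1, 30.4, 76.2 and 73.9 TPM under DOX/IgG1, and 65.35, 47.6 and 43.95 TPM under DOX/anti-PD-1. DOX/IgG1 tumors 2 and 3 were the highest of all, but DOX/IgG1 tumor 1 was the second lowest, so the groups overlapped. Psmb9 measured 18.2, 12.1 and 16.8 TPM under IgG1, 30.4, 17.35 and 18.45 TPM under anti-PD-1, 24.2, 23.8 and 29.7 TPM under DOX/IgG1, and 20.2, 17.5 and 17.7 TPM under DOX/anti-PD-1. Its DOX/IgG1 tumors were above all 3 IgG1 tumors and above all 3 DOX/anti-PD-1 tumors, while anti-PD-1 tumor 1 was higher than any of them. Psmb10 measured 10.85, 17.96 and 13.96 TPM under IgG1, 11.03, 19.79 and 12.91 TPM under anti-PD-1, 12.2, 28.8 and 27.2 TPM under DOX/IgG1, and 22.7, 12.6 and 9.11 TPM under DOX/anti-PD-1. DOX/IgG1 tumors 2 and 3 again led, with every pair of groups overlapping. The Psmb8 window was the only member window with a gamma-activated match, 97 bases before the start, a pattern held by 8.3% of all windows, and the Psmb10 window held none of the searched letters.

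Set against its standard counterpart, Psmb8 was 0.744 to 2.90 times the level of Psmb5, with a median of 1.47, and exceeded it in 10 of the 12 tumors. The ratio was 2.55, 0.744 and 1.11 in the IgG1 tumors and 0.858, 2.89 and 2.90 in the DOX/IgG1 tumors, so the groups overlapped. Psmb9 stayed between 0.0689 and 0.246 times the level of Psmb6, and Psmb10 between 0.225 and 0.953 times that of Psmb7. In none of these 3 ratios did the doxorubicin tumors separate from the others.

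Nlrc5 is the transactivator that joins the factors bound at X and Y boxes and switches on class I genes, the transporter and the immunoproteasome. It measured 69.35, 105 and 158 TPM under IgG1, 168, 65.8 and 70.0 TPM under anti-PD-1, 180.0, 154 and 235 TPM under DOX/IgG1, and 204, 171 and 202 TPM under DOX/anti-PD-1. All 3 DOX/anti-PD-1 tumors were above all 3 anti-PD-1 tumors, and 5 of the 6 doxorubicin tumors exceeded every tumor without the drug. IgG1 tumor 3 and anti-PD-1 tumor 1 came nearest to the doxorubicin tumors, and both lay above the lowest of them, DOX/IgG1 tumor 2.

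**Figure D2:**
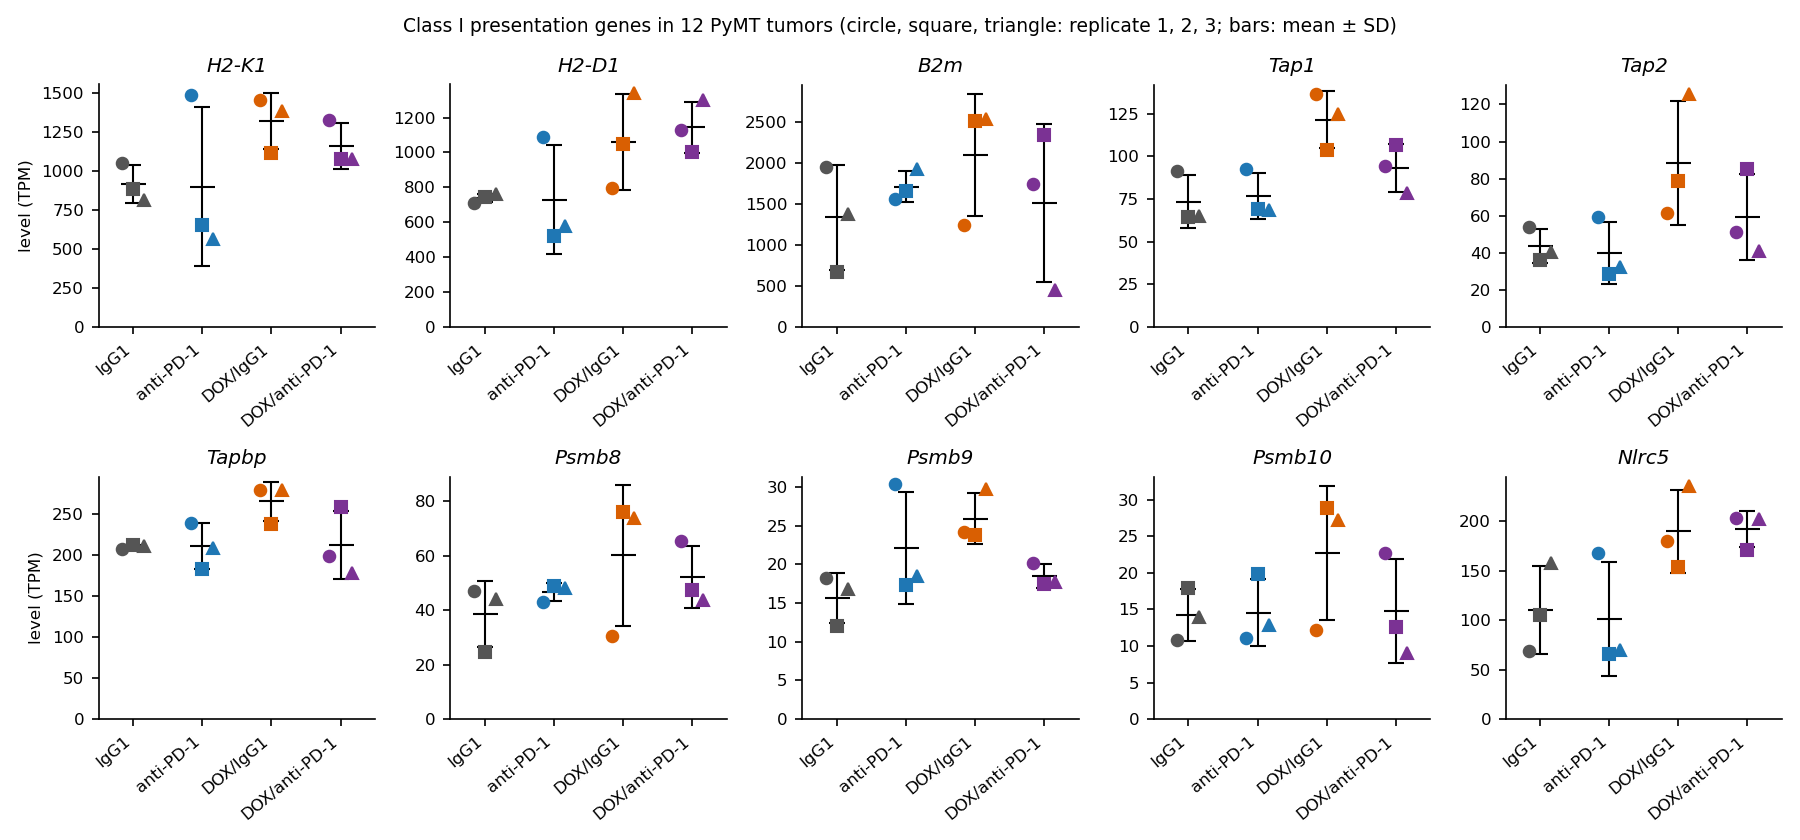
TPM (vertical axis) of each of the 10 members in every tumor, by group (IgG1, anti-PD-1, DOX/IgG1, DOX/anti-PD-1); points are single tumors and bars the group means with SD, n = 3. The DOX/IgG1 tumors stand above all IgG1 tumors for H2-K1, H2-D1, Tap1, Tap2, Tapbp and Psmb9, and for Nlrc5 the DOX/anti-PD-1 tumors, 171 to 204 TPM, stand above all anti-PD-1 tumors, 65.8 to 168 TPM.

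Seen by tumor, DOX/IgG1 tumor 3 was among the 3 highest tumors for all 10 members and was the highest of all for 4 of them. Anti-PD-1 tumor 1 was the highest for H2-K1 and Psmb9, although the other two tumors of its group were among the lowest: 6 members in anti-PD-1 tumor 2 and 5 in anti-PD-1 tumor 3 were among their 3 lowest values. DOX/anti-PD-1 tumor 3 was the lowest tumor for B2m, Tapbp and Psmb10, yet had 202 TPM of Nlrc5 and 1298 TPM of H2-D1.

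Doxorubicin with the control antibody was compared with the control antibody alone. All 10 members were higher on average in the DOX/IgG1 tumors, by 0.33 to 0.96 on the log2 scale with a median of 0.64. All 10 stayed higher after median-of-ratios scaling, which divides each tumor by the median ratio of its genes to their geometric means over the tumors, with Tapbp lowest at 0.21. Over all 13874 genes tested 60.6% were higher, with a median of 0.12, which that scaling brought to 0.01 and the members' median to 0.52. The largest difference was that of Tap2, 0.96 (SE 0.31), from a mean of 43.6 ± 9.10 to 88.5 ± 33.3 TPM (SD, n = 3), a ratio of 2.03, followed by Nlrc5 at 0.83 (SE 0.32), Tap1 at 0.73 (SE 0.24) and B2m at 0.71 (SE 0.45), but Nlrc5 was at 0.53 without IgG1 tumor 1 and B2m at 0.28 without IgG1 tumor 2. For 6 members, H2-K1, H2-D1, Tap1, Tap2, Tapbp and Psmb9, no IgG1 tumor reached the lowest DOX/IgG1 tumor, against 14.0% of all genes without overlap in either direction and 9.31% without overlap and higher. In limma, a linear model across all genes in which a call needs an adjusted p below 0.1 and a log2 difference beyond 1, 0 of 10 members were called, with adjusted p from 0.533 to 0.775, against 0.0360% of all genes. At an unadjusted p below 0.05 limma held 4 members, Tap1, Tap2, Psmb9 and Nlrc5, and 1073 of all genes, 7.73%. That count was 2 after median-of-ratios scaling, 8 without DOX/IgG1 tumor 1, 2 without IgG1 tumor 3 and 1 without either IgG1 tumor 2 or DOX/IgG1 tumor 3, with all 10 members higher each time. An exact two-sided permutation test of 3 against 3 tumors cannot give a p below 0.1.

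The same drug contrast under PD-1 blockade set DOX/anti-PD-1 against anti-PD-1 tumors. Nlrc5 had the largest difference, 1.05 (SE 0.35, limma adjusted p = 0.504), from 101 ± 58.0 to 192 ± 18.4 TPM (SD, n = 3), and was the single member whose groups did not overlap, against 14.9% of all genes in either direction and 11.1% higher. H2-D1 was higher by 0.72 (SE 0.32, limma adjusted p = 0.581), Tap2 by 0.56 (SE 0.36) and H2-K1 by 0.50 (SE 0.37), with overlapping groups. Tap2 was at 0.26 without DOX/anti-PD-1 tumor 2, 0.36 without anti-PD-1 tumor 2 and 0.87 without anti-PD-1 tumor 1, and H2-K1 at 0.23 without anti-PD-1 tumor 3 and 0.93 without anti-PD-1 tumor 1. B2m had a difference of -0.48 (SE 0.54), which became 0.24 without DOX/anti-PD-1 tumor 3 and -0.94 without DOX/anti-PD-1 tumor 2, and Psmb9 had -0.20, which became 0.04 without anti-PD-1 tumor 1 and -0.35 without anti-PD-1 tumor 2. Among the 10 members 7 were higher, with a median of 0.21 (0.32 without DOX/anti-PD-1 tumor 3), beside 59.98% and a median of 0.11 over all 13736 genes; after median-of-ratios scaling 6 were, with a median of 0.08 beside -0.01 over all genes. In limma 0 of 10 members were called, against 0% of all genes, and at an unadjusted p below 0.05 there were 1 member, Nlrc5, and 1185 genes, 8.63%. Without anti-PD-1 tumor 1, the highest of its group for most members, 4 members had an unadjusted p below 0.05, and without anti-PD-1 tumor 2 or 3, none did. Of the marker lists given further below, adipocyte genes had 6 of 6 higher, fibroblast genes 8 of 8 and macrophage genes 7 of 8, while NK cell genes had 2 of 4.

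Over both antibodies, the 6 doxorubicin tumors were compared with the 6 others in a fit of all 4 groups. Nlrc5 averaged 191 TPM against 106 TPM, a ratio of 1.80 and a log2 difference of 0.94 (SE 0.25, limma adjusted p = 0.220). Tap2 followed at 0.76 (SE 0.25, limma adjusted p = 0.277), H2-D1 at 0.60 (SE 0.21, limma adjusted p = 0.305), H2-K1 at 0.51 (SE 0.24) and Tap1 at 0.51 (SE 0.16, limma adjusted p = 0.272). The other members differed less, Psmb8 by 0.35 (0.21 without IgG1 tumor 2 and 0.57 without DOX/IgG1 tumor 1), Psmb10 by 0.27 (0.10 without DOX/anti-PD-1 tumor 1 and 0.46 without DOX/IgG1 tumor 1), Psmb9 by 0.25 (0.16 without IgG1 tumor 2), Tapbp by 0.17 (SE 0.15; 0.09 without DOX/anti-PD-1 tumor 2) and B2m by 0.12 (SE 0.39), and after median-of-ratios scaling Psmb8, Psmb10, Psmb9 and Tapbp stood at 0.23, 0.16, 0.13 and 0.04. Exact two-sided permutation tests over the 924 arrangements of 6 against 6 gave unadjusted p = 0.0087 for Nlrc5, 0.013 for H2-D1 and for Tap1, 0.026 for Tap2 and 0.0498 for H2-K1. The same tests gave 0.20 for Tapbp, 0.21 for Psmb8, 0.26 for Psmb9, 0.38 for Psmb10 and 0.78 for B2m. They were not run over all genes, and their arrangements also mixed the antibodies. All 10 members were higher, with a median of 0.43, but after median-of-ratios scaling B2m turned to -0.01 and the median was 0.31, and over all 14735 genes 63.3% were higher with a median of 0.12, or 0.01 after scaling. B2m also turned without IgG1 tumor 2, to -0.10, without DOX/anti-PD-1 tumor 1, to -0.01, and without DOX/anti-PD-1 tumor 2, to -0.12, and it was 0.48 without DOX/anti-PD-1 tumor 3. No member was without overlap, against 0.719% of all genes in either direction and 0.597% higher. In limma 0 of 10 members were called, against 0.0882% of all genes, and at an unadjusted p below 0.05 there were 5 members and 1751 genes, 11.9%.

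PD-1 blockade was compared with the control antibody without and with doxorubicin. Without the drug, 5 members were higher and 5 lower (6 higher after median-of-ratios scaling), with a median of 0.00. Over all 13692 genes 47.2% were higher with a median of -0.03. B2m had the largest difference, 0.48 (SE 0.37), with 0.06 without IgG1 tumor 2, whose 674 TPM was the low value of its group, and 0.82 without IgG1 tumor 1, while Psmb9 stood at 0.44 (SE 0.31), or 0.20 without anti-PD-1 tumor 1, and Psmb8 at 0.32 (SE 0.29), or 0.04 without IgG1 tumor 2 and 0.49 without IgG1 tumor 1. No member was without overlap between the groups, against 9.88% of all genes in either direction and 3.64% higher. In limma 0 of 10 members and 0% of all genes were called, and at an unadjusted p below 0.05 there were 0 members and 630 genes, 4.60%. The count of members higher was 9 without anti-PD-1 tumor 2 and 8 without anti-PD-1 tumor 3, the tumors with the lowest heavy chain levels, and 1 member had an unadjusted p below 0.05 without IgG1 tumor 1 or anti-PD-1 tumor 1.

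With doxorubicin, 8 of the 10 members had a lower mean under the blocking antibody than under its control. Their median was -0.36 (8 and -0.32 after median-of-ratios scaling). Over all 13946 genes 46.3% were higher with a median of -0.04. B2m had -0.70 (SE 0.60), Psmb10 -0.59 (SE 0.45), Tap2 -0.58 (SE 0.36), Psmb9 -0.46 (SE 0.27) and Tap1 -0.38 (SE 0.23), while Nlrc5 at 0.04 and H2-D1 at 0.13 were higher. Nlrc5 turned to -0.10 without DOX/IgG1 tumor 2 and H2-D1 to -0.06 without DOX/IgG1 tumor 1, and without DOX/IgG1 tumor 3 they were at 0.20 and 0.32 and Tap2 at -0.30. Without DOX/anti-PD-1 tumor 3 the B2m difference was 0.02, that of Psmb10 -0.32 and the median over the members -0.18, whereas B2m was at -1.17 and Tap2 at -0.87 without DOX/anti-PD-1 tumor 2, and Psmb10 at -0.97 without DOX/IgG1 tumor 1. Psmb9 was the single member without overlap, 17.5 to 20.2 TPM against 23.8 to 29.7 TPM, against 10.2% of all genes in either direction, 5.95% lower, as Psmb9 was, and 4.27% higher. In limma 0 of 10 members and 0% of all genes were called, and at an unadjusted p below 0.05 there were 0 members and 655 genes, 4.70%, with 1 member without DOX/IgG1 tumor 1 or DOX/anti-PD-1 tumor 2. Averaged over both drug states, the antibody contrast gave 2 members higher (3 after scaling), beside 45.6% of all genes. The members' median was -0.13 (-0.21 without anti-PD-1 tumor 1 and -0.08 without anti-PD-1 tumor 3), beside -0.03 over all genes. In limma 0 of 10 members were called, against 0.00679% of all genes. An unadjusted p below 0.05 was reached by 0 members (1 without anti-PD-1 tumor 1) and 703 genes, 4.77%. The count of 2 was 0 without DOX/IgG1 tumor 1, 1 without IgG1 tumor 2 or anti-PD-1 tumor 1, and 4 without IgG1 tumor 1 or 3, anti-PD-1 tumor 2 or 3, or DOX/IgG1 tumor 3.

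Whether the doxorubicin difference itself depended on the antibody was tested as an interaction in the fit of 4 groups. Psmb9 had an interaction of -0.91 (SE 0.40, limma adjusted p = 0.993), its doxorubicin difference being 0.70 with the control antibody and -0.20 under anti-PD-1 (0.04 without anti-PD-1 tumor 1). B2m had the largest, -1.18 (SE 0.78, limma adjusted p = 0.993), from 0.71 (0.28 without IgG1 tumor 2) and -0.48 (0.24 without DOX/anti-PD-1 tumor 3). Over the members 8 of 10 were negative with a median of -0.42, the same after median-of-ratios scaling. Over all genes the median was -0.01 and 49.4% were positive. The members' median was -0.27 without anti-PD-1 tumor 1 or DOX/anti-PD-1 tumor 3 and -0.26 without DOX/IgG1 tumor 3. In limma 0 of 10 members were called, against 0.00679% of all genes, and at an unadjusted p below 0.05 there were 1 member, Psmb9, and 694 genes, 4.71%. That member count was 0 whenever IgG1 tumor 2, anti-PD-1 tumor 1, DOX/IgG1 tumor 2 or 3, or DOX/anti-PD-1 tumor 2 or 3 was left out. Neither gene is thus shown to respond differently under the antibodies. The 4 comparisons between pairs of groups share tumors, so their differences are not independent of each other. Genes of the marker lists described further below went both ways in the interaction. Epithelial genes had 10 of 10 positive with a median of 0.31, adipocyte genes 6 of 6 with 1.33 and fibroblast genes 6 of 8 with 0.57. NK cell genes had 1 of 6 positive with -0.76, T cell genes 3 of 7 with -0.32 and salivary gland genes 0 of 4 with -3.44. The part of these cells in the members' interaction was not tested.

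**Figure D3:**
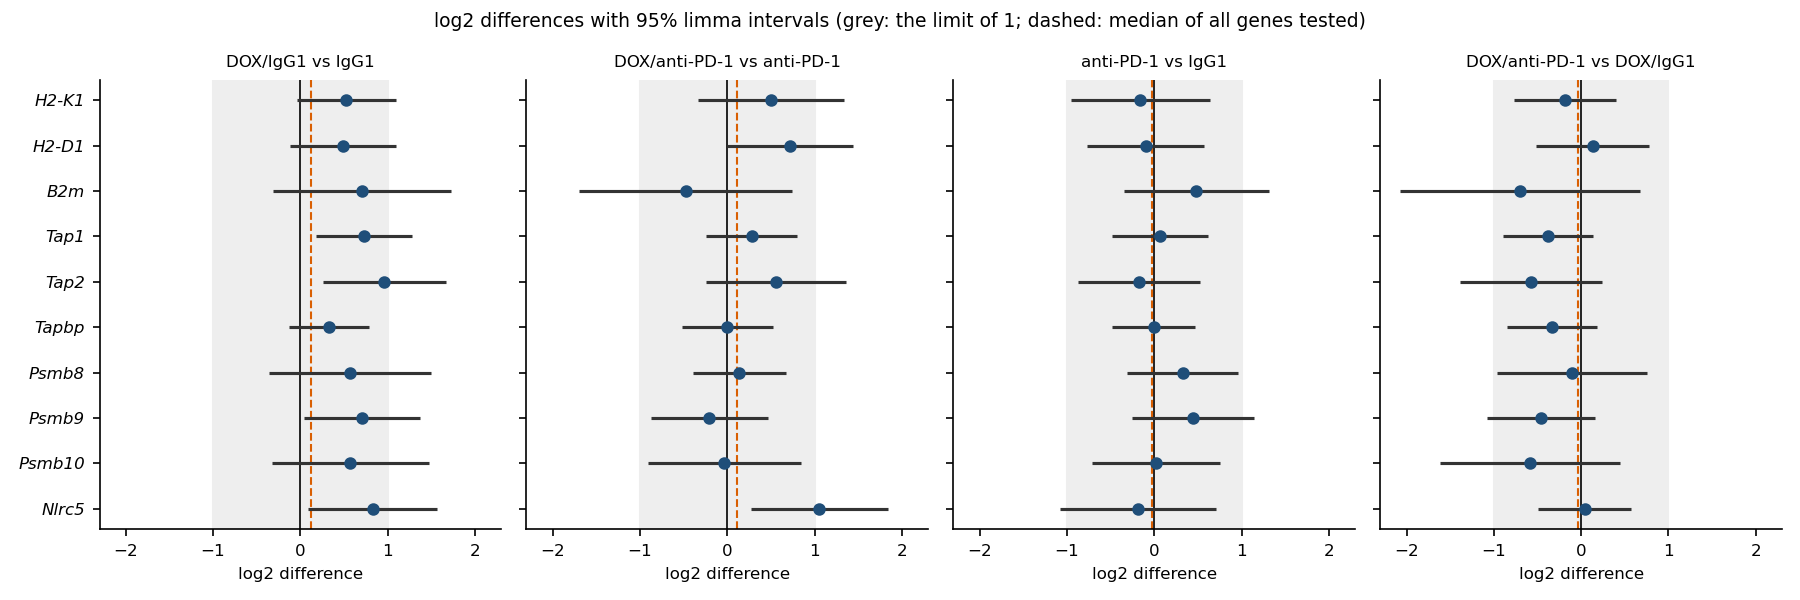
Log2 difference (horizontal axis, log2(TPM + 1)) of each member in the comparisons across doxorubicin and across the antibodies; points are limma estimates, bars their 95% confidence intervals, the grey band the range within 1, and the dashed line the median of all genes tested. All 10 members lie to the right of zero for DOX/IgG1 against IgG1 (0.33 to 0.96, and from 0.21 for Tapbp upward after median-of-ratios scaling), whereas DOX/anti-PD-1 against anti-PD-1 runs from -0.48 for B2m to 1.05 for Nlrc5.

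Across the 12 tumors the members were compared in all 45 pairs. The closest pair was H2-D1 and the transactivator Nlrc5. Both had anti-PD-1 tumors 2 and 3 and IgG1 tumor 1 as their 3 lowest and DOX/IgG1 tumor 3 as their highest. Their Pearson r was 0.89 (permutation p = 2e-05, adjusted p = 0.0009) and Spearman's rho 0.90 (permutation p = 0.00015, adjusted p = 0.00675). The r was 0.77 without anti-PD-1 tumors 2 and 3, the farthest from the median, and 0.76 within groups, after group means were removed. The transporter subunits Tap1 and Tap2 came next, with r 0.85 (permutation p = 0.00054, adjusted p = 0.0121) and rho 0.87 (permutation p = 0.00046, adjusted p = 0.0103). Their r was 0.95 without IgG1 tumor 2 and DOX/IgG1 tumor 1, and 0.66 within groups. Tap2 with Tapbp had r 0.81 (permutation p = 0.00151, adjusted p = 0.0226) and rho 0.72 (permutation p = 0.0103, adjusted p = 0.0582). Their r was 0.68 without anti-PD-1 tumor 2 and DOX/IgG1 tumor 3, and 0.72 within groups. The heavy chains H2-K1 and H2-D1 had r 0.78 (permutation p = 0.0032, adjusted p = 0.024) and rho 0.74 (permutation p = 0.00828, adjusted p = 0.0532). Their r was 0.51 without anti-PD-1 tumors 2 and 3, and 0.67 within groups. The divergent neighbours Tap1 and Psmb9 had r 0.71 (permutation p = 0.00962, adjusted p = 0.0481) and rho 0.71 (permutation p = 0.0123, adjusted p = 0.0613). Their r was 0.64 without IgG1 tumor 2 and DOX/IgG1 tumor 1, and 0.63 within groups.

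Over all 45 pairs r was positive in 43 with a median of 0.48, and 9 had an adjusted permutation p of r below 0.05. Within groups 32 were positive with a median of 0.37. For B2m and the heavy chains it pairs with, r was 0.06 with H2-K1 and -0.06 with H2-D1. The highest r of B2m was with Psmb8, 0.66 (permutation p = 0.0228, adjusted p = 0.0836), with rho 0.81 (permutation p = 0.002, adjusted p = 0.0288). That r was 0.79 without IgG1 tumor 2 and DOX/anti-PD-1 tumor 3, and 0.67 within groups. Psmb10 had a median r of 0.19 with the other 9 members and -0.09 within groups. For Nlrc5 that median was 0.48 with 8 of 9 positive, and 0.35 within groups with 6 positive. Nlrc5 had r -0.09 with B2m, 0.14 with Psmb10, 0.23 with Psmb8, 0.56 with Tap1 and 0.76 with H2-K1. Within groups these were -0.19, -0.09, -0.065, 0.10 and 0.60. An action of Nlrc5 on the other members was not tested.

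A further 60 relations set the members against 6 other genes. Irf1, the interferon-induced factor of class I promoters, had a positive r with all 10 members. It was highest with Psmb9 at 0.78 (permutation p = 0.00188, adjusted p = 0.0564), with rho 0.69 (permutation p = 0.0171, adjusted p = 0.171). That r was 0.70 without anti-PD-1 tumor 1 and DOX/IgG1 tumor 3, and 0.67 within groups. With Ptprc, Cd3e, Cd8a and Epcam no member had an adjusted permutation p below 0.1, and the median r was 0.17, 0.12, 0.39 and -0.38, against 0.28, -0.19, -0.14 and 0.26 within groups.

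**Figure D4:**
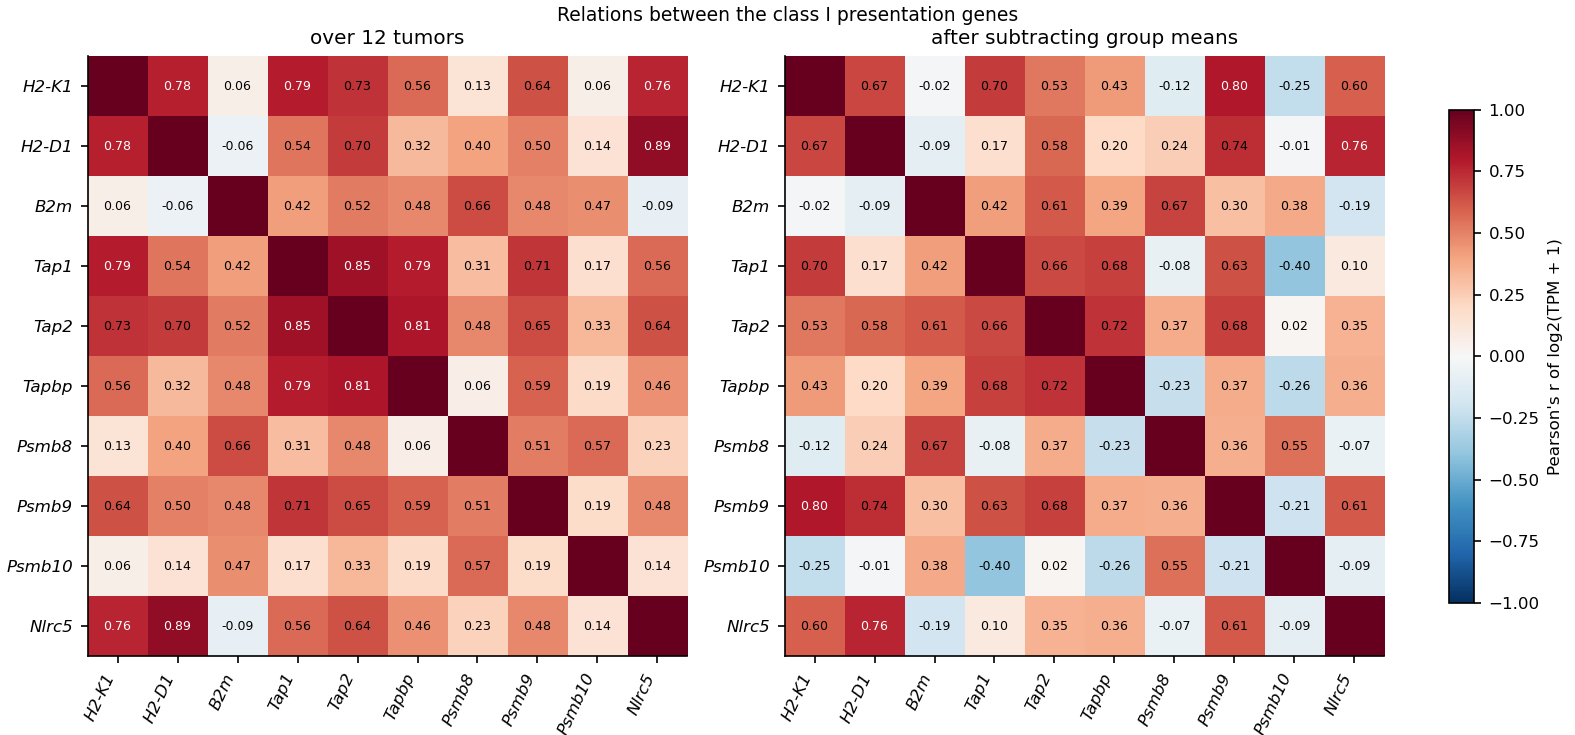
Pearson r (colour and printed value, no unit) of log2(TPM + 1) for each pair of members, both axes listing the 10 genes, over the 12 tumors (left) and after subtraction of group means (right). The deepest colours off the diagonal on the left are H2-D1 with Nlrc5 (0.89) and Tap1 with Tap2 (0.85), on the right H2-K1 with Psmb9 (0.80), and the cells of B2m with H2-K1 and H2-D1 are near 0 on the left (0.06 and -0.06).

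Other genes of the pathway are given for the doxorubicin contrast over both antibodies, as the number higher of those tested and the median log2 difference, beside 0.12 over all genes, with the value after median-of-ratios scaling, where all genes stood at 0.01. Of the class I heavy chains other than H2-K1 and H2-D1, 16 of 19 were listed and 11 tested; 9 were higher with a median of 0.55 (9 and 0.44 after scaling). H2-Q10, a secreted relative, had the largest difference, 1.57 (SE 0.39, limma adjusted p = 0.208), from 0.78 to 2.68 TPM without the drug to 2.92 to 17.7 TPM with it, without overlap, and some of its sequence is shared with H2-K1. H2-Q6 differed by 0.91 and H2-Q4 by 0.49, while H2-T23, a ligand of the NK cell receptor that contains Klrd1, had -0.08 and H2-M9 -0.71. Of 8 class I-like molecules 7 were higher with a median of 0.33 (6 and 0.23 after scaling), among them H60b (0.60) and the Fc receptor Fcgrt (0.52), while Ulbp1 had -0.77.

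Of 13 genes of peptide trimming and loading, 3 were higher with a median of -0.13 (2 and -0.25 after scaling), and none passed the test. The largest differences on the lower side were those of Canx, Calr and Pdia3. Canx, which holds new heavy chains, measured 1078, 1424 and 1061 TPM under IgG1, 1348, 933 and 913 TPM under anti-PD-1, 922, 625 and 558 TPM under DOX/IgG1, and 809.9, 727 and 568 TPM under DOX/anti-PD-1. A single doxorubicin tumor, DOX/IgG1 tumor 1, reached the range of the others, and the difference was -0.69 (SE 0.20, limma adjusted p = 0.240). Calr, the chaperone that joins Tapbp, differed by -0.58 (SE 0.28), and Pdia3, the oxidoreductase of the same complex, by -0.48 (SE 0.19), both with overlapping values. Erap1, which trims peptide ends, had 0.14, Tapbpl 0.04 and Thop1 0.41.

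The 3 standard catalytic subunits were all lower, with -0.27 for Psmb7, -0.26 for Psmb6 and -0.06 for Psmb5 (median -0.26, and -0.39 after scaling). Among 8 activator and assembly genes 4 were higher with a median of 0.01 (3 and -0.11 after scaling), with 0.56 for Pomp, the assembly chaperone, 0.29 for Psmg1, 0.21 for Psme2, -0.00 for Psme1, and -0.58 for Psmg2. Of the other 11 core subunits 6 were higher with a median of 0.05 (4 and -0.07 after scaling), from -0.30 for Psma4 to 0.35 for Psmb2.

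Of 14 factors of class I promoters 7 were higher with a median of 0.03 (5 and -0.09 after scaling). Eed had 0.57, the NF-kappaB subunits Rela and Nfkb1 0.50 and 0.34, Irf1 0.30 and Irf2 0.11, while Rfxap, a subunit of the complex on the X box with which Nlrc5 works, had -0.83 (SE 0.23, limma adjusted p = 0.220). Interferon signaling had 8 of 11 tested genes higher with a median of 0.29 (7 and 0.20 after scaling), led by Jak2 (0.64), Ifngr1 (0.48) and Stat2 (0.46), with Ifnar2 (-0.49), Ifnar1 (-0.37) and Ifngr2 (-0.31) on the other side. Interferon gamma itself, Ifng, was listed at 0 in 10 tumors and at 0.53 TPM in anti-PD-1 tumor 2 and 4.29 TPM in DOX/IgG1 tumor 3.

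Of 34 interferon-stimulated genes 27 were higher with a median of 0.24 (24 and 0.12 after scaling). The guanylate-binding proteins Gbp6 and Gbp4, both at 0.85, and Gbp5 at 0.74 led, and the chemokine Cxcl9 had -1.51 (SE 0.48, limma adjusted p = 0.269). In DOX/IgG1 against IgG1 30 of the 34 were higher with a median of 0.40 (29 and 0.28 after scaling), and in DOX/anti-PD-1 against anti-PD-1 21 were higher with a median of 0.04, which turned to -0.08 after scaling. MHC class II presentation had 6 of 10 tested genes higher with a median of 0.10, which turned to -0.02 after scaling, with Ciita, the class II counterpart of Nlrc5, at 0.26, H2-Ab1 at 0.26 and Cd74 at -0.06. Among 8 tested genes of class I recognition and checkpoints 6 were higher with a median of 0.64 (6 and 0.57 after scaling): the receptor Klrk1 had 1.00, Klrd1 0.83 and Cd274, the PD-1 ligand, 0.78 (SE 0.28, limma adjusted p = 0.314), Cd274 running from 1.70 to 3.98 TPM without the drug and from 3.67 to 7.71 TPM with it. In limma no gene of these lists was called in any of the 7 comparisons, and in the doxorubicin contrast an unadjusted p below 0.05 was reached by 7 of 34 interferon-stimulated genes, 3 of 11 other heavy chains, 3 of 14 promoter factors, 2 of 13 genes of peptide trimming and loading, 2 of 11 of interferon signaling, 1 of 8 each of the class I-like molecules, the activator and assembly genes and the recognition and checkpoint genes, and 0 of the 3 standard and 11 other core subunits and of the 10 class II genes, beside 11.9% of all genes.

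**Figure D5:**
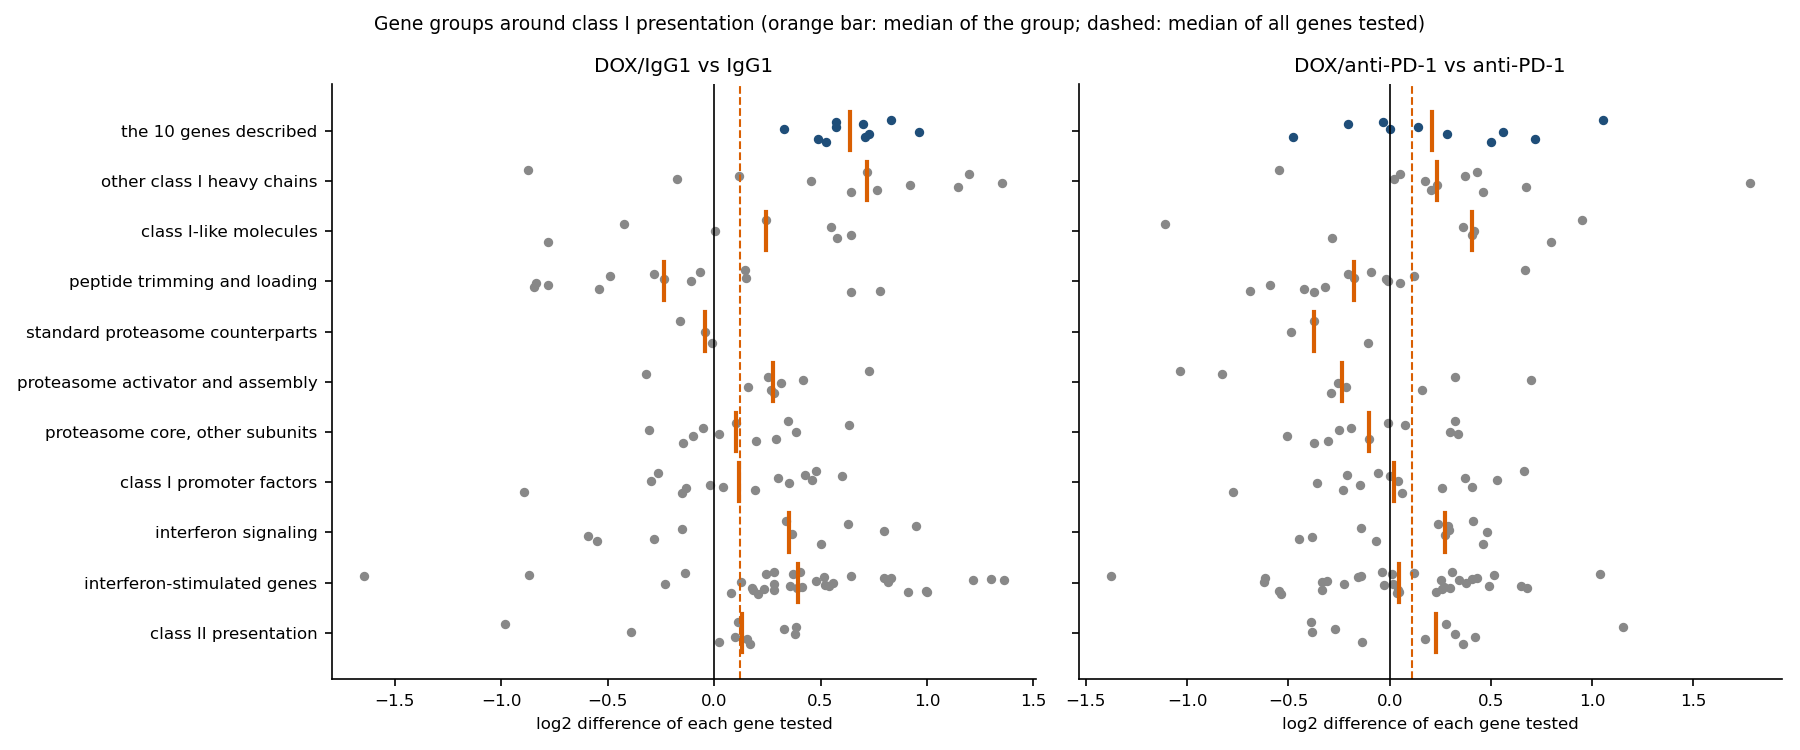
Log2 difference (horizontal axis, log2(TPM + 1)) of each tested gene of 11 lists (vertical axis) for DOX/IgG1 against IgG1 (left) and DOX/anti-PD-1 against anti-PD-1 (right); points are genes, blue for the members, orange bars list medians, and the dashed line the median of all genes tested, 0.12 and 0.11. The members have medians of 0.64 and 0.21 and the other class I heavy chains 0.72 and 0.23, while peptide trimming and loading genes have -0.24 and -0.18, signs that median-of-ratios scaling did not turn. After that scaling the members stood at 0.52 and 0.08 and the other heavy chains at 0.60 and 0.10. Peptide trimming and loading genes then stood at -0.36 and -0.31.

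Because class I genes are expressed by many cell types, marker lists of those cells were summed in each tumor. The 10 T cell genes, 9 of them listed and Cd3e the most abundant, summed to 25.0, 20.4 and 8.91 TPM under IgG1, 8.08, 18.6 and 9.52 TPM under anti-PD-1, 8.58, 54.9 and 47.8 TPM under DOX/IgG1, and 18.4, 18.5 and 37.4 TPM under DOX/anti-PD-1. The highest sums belonged to DOX/IgG1 tumors 2 and 3, the tumors in which Psmb8, Psmb10 and B2m peaked, but DOX/IgG1 tumor 1, with the highest Tap1 and the second highest H2-K1, was near the bottom. In the doxorubicin contrast 6 of 7 tested T cell genes were higher with a median of 0.56 (5 and 0.49 after scaling), with Cd3g at 1.73 (SE 0.46, limma adjusted p = 0.220), and Cd8a ran from 0 to 5.57 TPM.

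The 7 leukocyte genes, led by Ptprc, summed to 226, 191 and 278 TPM under IgG1, 162, 219 and 160.5 TPM under anti-PD-1, 149, 238 and 325 TPM under DOX/IgG1, and 162, 230.3 and 177 TPM under DOX/anti-PD-1, which overlapped throughout, with 3 of 7 higher and a median of -0.01 (1 and -0.13 after scaling). The 10 epithelial genes, led by Epcam, summed to 4074, 2917 and 3566 TPM under IgG1, 3207, 2522 and 2761 TPM under anti-PD-1, 2381, 3608 and 4163 TPM under DOX/IgG1, and 3476, 3214 and 2594 TPM under DOX/anti-PD-1. They overlapped as well, while Epcam alone had -0.54 (SE 0.19, limma adjusted p = 0.300) in the doxorubicin contrast, and the list had 3 of 10 higher and a median of -0.13 (3 and -0.25 after scaling). Beside these, the summed level of the 10 members was 4213, 2776 and 3502 TPM under IgG1, 4777, 3264 and 3524 TPM under anti-PD-1, 4218, 5381 and 6162 TPM under DOX/IgG1, and 4859, 5124 and 3399 TPM under DOX/anti-PD-1. The part of any of these cells in the members' differences was not tested.

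The remaining marker lists had these counts in the doxorubicin contrast, each with its value after scaling. NK cell genes had 5 of 6 higher with a median of 0.44 (5 and 0.37), macrophage genes 8 of 8 with 0.24 (7 and 0.12), fibroblast genes 6 of 8 with 0.27 (5 and 0.15) and adipocyte genes 6 of 6 with 1.00 (6 and 0.92). Dendritic cell genes had 3 of 6 higher with -0.06 (3 and -0.13), neutrophil genes 1 of 3 with -0.07 (1 and -0.13), muscle genes 4 of 7 with 0.12 (4 and 0.05), and endothelial genes 4 of 6 with 0.08, which turned to -0.04 with 3 higher. The single B cell gene tested, Jchain, had 0.13 (0.03 after scaling), and the neutrophil marker Ly6g was listed at 0 in every tumor. Salivary gland genes, led by Amy1, had 4 of 4 higher with 1.49 (4 and 1.41) and summed to at most 23.3 TPM in the other groups and to 60.1, 98.0 and 114 TPM in the DOX/IgG1 tumors, the group with the highest mean of most members. In DOX/IgG1 against IgG1, Bpifa2 and Smr3a of that list passed the test in limma, with 4.73 and 3.87, among 5 genes called, a count that was 0 without DOX/IgG1 tumor 3 or any IgG1 tumor, 2 without DOX/IgG1 tumor 2 and 122 without DOX/IgG1 tumor 1. Adipocyte genes, led by Adipoq, summed to 490.2 TPM in DOX/IgG1 tumor 2 and 561 TPM in DOX/anti-PD-1 tumor 1. The part of these tissues in the members' values was not tested.

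The same lists were counted in the pair of comparisons that share the DOX/IgG1 group, each with its value after scaling, beside medians over all genes of 0.12 for DOX/IgG1 against IgG1 (0.01 after scaling) and -0.04 for DOX/anti-PD-1 against DOX/IgG1 (-0.00 after scaling). In DOX/IgG1 against IgG1 the T cell genes had 6 of 7 higher with a median of 0.48 (6 and 0.38), NK cell genes 4 of 4 with 0.91 (3 and 0.80), leukocyte genes 4 of 7 with 0.15 (4 and 0.04), macrophage genes 7 of 8 with 0.21 (4 and 0.08), adipocyte genes 5 of 6 with 0.45 (5 and 0.35) and salivary gland genes 4 of 4 with 2.87 (4 and 2.78). Epithelial genes had 3 of 10 higher with -0.23 (3 and -0.35), and Epcam did not overlap, at 846 to 954 TPM under IgG1 and 418 to 565 TPM under DOX/IgG1 (-0.87, SE 0.23, limma adjusted p = 0.469). Dendritic cell genes had 4 of 6 higher with 0.11, which turned to -0.01 with 3 higher, fibroblast genes 4 of 8 with 0.08, which turned to -0.04, endothelial genes 2 of 6 with -0.10 (2 and -0.21), muscle genes 2 of 7 with -0.34 (1 and -0.41) and neutrophil genes 0 of 2 with -0.76 (0 and -0.82), and Jchain had 0.70 (0.60). Between the doxorubicin groups, where 8 of the 10 members were lower under anti-PD-1, T cell genes had 1 of 7 higher with -0.51 (1 and -0.49), NK cell genes 0 of 6 with -0.96 (0 and -0.96), leukocyte genes 2 of 7 with -0.38 (3 and -0.34), macrophage genes 1 of 8 with -0.35 (1 and -0.31), dendritic cell genes 2 of 6 with -0.32 (2 and -0.29) and salivary gland genes 0 of 4 with -2.42 (0 and -2.38), and Jchain had -0.67 (-0.64). Epithelial genes had 4 of 10 higher with -0.01, which turned to 0.03 with 6 higher, fibroblast genes 6 of 8 with 0.30 (6 and 0.34), endothelial genes 3 of 6 with 0.12 (3 and 0.15), adipocyte genes 5 of 6 with 0.62 (5 and 0.65), muscle genes 5 of 7 with 0.35 (5 and 0.41) and neutrophil genes 2 of 2 with 1.18 (2 and 1.18). In DOX/anti-PD-1 against anti-PD-1, where all genes stood at 0.11 (-0.01 after scaling), adipocyte genes had 6 of 6 higher with 1.61 (6 and 1.49). Fibroblast genes had 8 of 8 with 0.65 (7 and 0.52) and T cell genes 3 of 5 with 0.97 (3 and 0.91). At an unadjusted p below 0.05 limma held 5 adipocyte, 4 fibroblast, 2 epithelial and 2 dendritic cell genes, beside 8.63% of all genes. Macrophage genes had 7 of 8 higher with 0.21 (7 and 0.08) and endothelial genes 5 of 6 with 0.19 (4 and 0.06). Dendritic cell genes had 3 of 5 with 0.08, which turned to -0.01 with 2 higher. Epithelial genes had 5 of 10 with -0.04 (4 and -0.17) and NK cell genes 2 of 4 with -0.13 (2 and -0.20). In anti-PD-1 against IgG1, where all genes stood at -0.03 (0.01 after scaling), adipocyte genes had 0 of 6 higher with -0.85 (0 and -0.81). Fibroblast genes had 0 of 8 with -0.24 (1 and -0.20) and epithelial genes 2 of 10 with -0.23 (2 and -0.19). Macrophage genes had 1 of 8 with -0.24 (1 and -0.20) and T cell genes 1 of 5 with -0.47 (1 and -0.44). NK cell genes had 1 of 2 with 0.45 (2 and 0.46) and salivary gland genes 2 of 2 with 0.77 (2 and 0.78). The part of these cells in the members' differences was not tested.

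The genes whose values followed the members most closely were sought among 14725 genes by the mean Pearson r with the 10 members over the 12 tumors after group means were removed, a description for which the median gene had 0.003. H2-Q4, itself a class I heavy chain, had the highest mean r, 0.566, and a single r of 0.920 with Psmb9. It measured 120.2, 96.9 and 118 TPM under IgG1, 234, 94.5 and 93.55 TPM under anti-PD-1, 166, 178 and 231 TPM under DOX/IgG1, and 169.8, 148 and 127 TPM under DOX/anti-PD-1. Like H2-K1 and Psmb9 it was highest in anti-PD-1 tumor 1. The next were the kinase gene Pim2 (0.563), Fam92a (0.555), the mineralocorticoid receptor gene Nr3c2 (0.545), Gm19684 (0.541), the methionine sulfoxide reductase gene Msrb2 (0.536), Gm5617 (0.534) and 2310022A10Rik (0.532). Gm5617 and Gm19684 were listed at 0 in several tumors and reached at most 6.85 and 6.32 TPM. Pim2 lay between 2.20 and 6.30 TPM, so the r of these genes rests on low values. All 8 were highest in anti-PD-1 tumor 1 or DOX/IgG1 tumor 3. For the members themselves the same mean r with the other 9 was highest for Tap2 (0.502) and Psmb9 (0.477), and lowest for Psmb10 (-0.03).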

How the data were processed

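RNA levels of 12 whole MMTV-PyMT tumors, 3 in each of 4 groups taken from the labels, were read from the deposited tables, in which the authors gave each gene as log2(TPM + 1), written with decimal commas. Per the labels and the study's methods, the authors trimmed reads with skewer, aligned them to mm10 with STAR and quantified them with RSEM through SeqBox, and named the unit TPM; the deposited values alone do not tell TPM from FPKM. Depth is not recorded in such values.

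Values were turned back to TPM for levels. Differences were fitted on log2(TPM + 1) with limma 3.58.1 in R 4.3.3 (lmFit, then eBayes allowing a trend of variance with level), for genes at 1 TPM or more in at least 3 of the tumors compared, 6 in pairwise fits and 12 in fits of the 4 groups, with Benjamini-Hochberg adjustment over all genes tested. A call needed a log2 difference beyond 1 in either direction together with an adjusted p under 0.1. Exact permutation tests were two-sided over all arrangements of tumors. Correlations used 100000 resamples, in Python 3.11.15 with numpy 2.4.6, pandas 2.3.3 and scipy 1.17.1, and p-values were adjusted over the 45 member pairs and over the 60 other relations. The limma fits of some of the comparisons were tested on simulated data with known differences.

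Genes named in the text were all 10 members, a set of named pathway and marker genes, any list gene called, up to 3 of each list with the largest difference in each direction in the doxorubicin contrast, and the 8 genes most like the members; not all of them are described. The members and lists were chosen with earlier results of these data known, and the ratios, the check of shared 75-base windows and the motifs were chosen after values were seen; the kappaB-like pattern was shortened by 1 letter after a first search that matched the same members. The results of 1 gene set against the members are not reported here. The alternatives were a pseudocount of 0.1, no minimum, 1 TPM in every tumor, median-of-ratios scaling, no mean-variance trend, a replicate block, pairwise comparisons in the fit of all 12 tumors, an adjusted p below 0.05, and leaving out each tumor in turn. Positions came from GENCODE for GRCm38, in which 21860 of the files' genes were matched by identifier, and promoter windows from RefSeq for GRCm38.p6.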

Additional observations from a re-analysis of the deposited data

Results flagged for a closer look

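Bpifa2, a secreted protein gene of the salivary gland and outside the class I pathway, had an interaction of -4.73 on the log2 scale between doxorubicin and the antibody (limma adjusted p = 0.0909). It was listed at 14.4, 21.3 and 53.7 TPM in the DOX/IgG1 tumors and at 0 in the other 9, so the size of this value depends on the pseudocount, and it was the single gene called for the interaction, a count that was 0 with a pseudocount of 0.1, with 1 TPM in every tumor, after median-of-ratios scaling, at an adjusted p below 0.05 and when any tumor other than DOX/IgG1 tumor 1 or DOX/anti-PD-1 tumor 3 was left out, and 3 with no minimum or without the mean-variance trend.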

How the results depend on the processing

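In the 6 comparisons other than the interaction, 660 differences of members were recomputed under the alternatives, and 55 had the other sign, 0 of them in DOX/IgG1 against IgG1. In that comparison Tapbp went from 0.33 to 0.21 after median-of-ratios scaling, the single value to move by more than the SD of its own tumors within groups, although by less than its SE in limma, 0.20. For the interaction 1 to 3 members were positive under the alternatives, in place of 2. No member was called under any alternative in any of the 7 comparisons.

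The number of genes called was less steady. Without the mean-variance trend it was 1 for anti-PD-1 against IgG1 and 3 for both DOX/anti-PD-1 against DOX/IgG1 and DOX/anti-PD-1 against anti-PD-1, each 0 in the report, 13 in place of 5 for DOX/IgG1 against IgG1, and 3 in place of 1 for both the antibody contrast and the interaction. DOX/anti-PD-1 against DOX/IgG1 gave 3 calls after median-of-ratios scaling and 2 in the fit of all 12 tumors. DOX/IgG1 against IgG1 gave 2 calls with 1 TPM in every tumor. The doxorubicin contrast gave 6 in place of 13, both with a pseudocount of 0.1 and at an adjusted p below 0.05. The antibody contrast and the interaction each gave 0 with a pseudocount of 0.1, with 1 TPM in every tumor, after scaling and at an adjusted p below 0.05, and the interaction gave 3 with no minimum.

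Leaving out each tumor in turn gave 0 to 4 calls for anti-PD-1 against IgG1, for DOX/anti-PD-1 against DOX/IgG1 and for DOX/anti-PD-1 against anti-PD-1. It gave 0 to 122 for DOX/IgG1 against IgG1 and 0 to 301 for the doxorubicin contrast, the highest in both cases without DOX/IgG1 tumor 1, 0 to 5 for the antibody contrast and 0 to 1 for the interaction. The causes of these changes were not tested. DOX/IgG1 tumor 1 had the lowest median r with the other tumors, 0.94, and its highest r was 0.944. The median over all pairs of tumors was 0.953. The same tumor also had the most genes listed at 0, 8104.

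With tumors of the same number treated as a replicate block, DOX/IgG1 against IgG1 gave 2 calls, and the antibody contrast and the interaction 0 each. The numbers are not stated to pair tumors: 4 of 18 same-numbered pairs had r above 0.1, and 8 of 12 tumors had their best match in another group under the same number.

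With 3 tumors a group, unknown depth and mixed tissue, member differences as large as those reported could not be separated from the spread between tumors after adjustment over all genes.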
